A study of Mus musculus with 10 samples.

Results

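The genes described here encode the proteins of the cytosolic ribosome, with their close copies, in mouse tumours formed under the skin by the colon carcinoma line MC38. Members were chosen by symbol: Rpl or Rps followed by a digit, with Rplp0, Rplp1, Rplp2 and Rpsa, and without the S6 kinases whose symbols start with Rps6k. The rule found 89 of the 18223 genes in the table. Of these, 77 encode proteins of the ribosome itself, 46 in the large and 31 in the small subunit. Another 6 are paralogs with a diverged sequence, 5 are retrocopies (copies of a spliced mRNA put back into the genome), and 1, Rps19bp1, encodes a protein that binds a ribosomal protein.

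The series holds 10 RNA-seq libraries of whole tumours, 5 labelled HTB (high tumour burden) and 5 labelled LTB (low tumour burden). By the treatment label, HTB received 2000000 and LTB 500000, each for 14 days, taken here as cells injected and days of growth. All 10 carry the same line and tissue label, and the labels used here name no other treatment, allele or mouse strain. They do not say whether each library is a separate animal, so p-values measure the spread between these libraries, which may be technical.

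Ribosomal proteins assemble with ribosomal RNA into the small subunit, which decodes the mRNA, and the large subunit, which forms the peptide bond. Their mRNAs are among the most abundant of a growing cell. Most begin with a C followed by a run of pyrimidines, the terminal oligopyrimidine (TOP) tract, through which the kinase mTORC1 and the RNA-binding protein LARP1 control their translation. That control acts on translation, which RNA-seq does not measure.

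Library totals ran from 23070917 to 27185168 estimated reads. By the measure that follows, HTB replicate 2 and LTB replicate 5 were the only libraries in which members of the family stood apart. Results that rest on them are given with and without them, apart from the calls of cell type markers. HTB replicate 2 had 433 genes above 5 CPM (reads per 1000000 of the TMM-scaled library total) and more than 4-fold above every other library. Its 14 skeletal muscle markers summed to 15956 CPM, against at most 73.3 CPM in the other HTB libraries and 8.01 to 11.2 CPM in LTB. Its 8 adipocyte markers summed to 5590 CPM, against 26.1 to 69.2 CPM in LTB. LTB replicate 5 had 12 such genes, of which 3 were ribosomal protein retrocopies. LTB replicate 1 had 16 and HTB replicate 3 had 1, of which 0 were members, and the other libraries had 0. Of the 9 names listed as epithelial markers for a colon carcinoma, 7 were in the table. The list held Villin by mistake, which is not a gene symbol. The sum of the 7 was only 2.67 to 6.81 CPM among HTB libraries and 6.38 to 16.1 CPM among LTB libraries. The macrophage marker sum ranged between 766 and 1338 CPM for HTB and between 1213 and 2443 CPM for LTB. The T cell marker sum ranged between 51.4 and 71.9 CPM for HTB and between 78.7 and 272 CPM for LTB. LTB replicate 1 had the highest LTB sum of macrophage and of T cell markers. The erythroid marker sum was 47.9 to 309 CPM for HTB, at most 71.2 CPM without replicate 2, and 15.8 to 32.0 CPM for LTB. By edgeR, 5 of 5 erythroid and 3 of 7 skeletal muscle markers tested were called higher in HTB, beside 3.91% of all genes. The muscle and erythroid calls were made with HTB replicate 2, which had the highest sum of both lists. They are not given without it, so the muscle calls may rest on that 1 library. Called lower in HTB were 6 of 10 T cell, 3 of 10 macrophage, 1 of 4 B cell and 1 of 2 epithelial markers. Over all genes 7.51% were called lower. Of the adipocyte, neutrophil, endothelium and fibroblast markers tested, 0 were called. In whole tumours fewer cells of a type and less RNA per cell cannot be told apart, and the part of cell composition in the values below was not tested.

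The ribosomal protein genes together took 6.94% ± 0.243 (SD, n = 5) of all reads in HTB and 6.76% ± 0.512 (SD, n = 5) in LTB. The HTB libraries held 7.05, 6.51, 7.03, 7.08 and 7.05%, and the LTB libraries 6.54, 6.82, 6.05, 7.44 and 6.93%. The groups overlapped: LTB replicate 3 had the lowest share of the series and LTB replicate 4 the highest. The difference of 0.19 percentage points was smaller than either SD, and without LTB replicate 3 it was 0.013.

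The members tested with the most reads, not corrected for length, were Rplp0, Rps2, Rpsa, Rpl4 and Rpl5. Rplp0, the base of the stalk that recruits translation factors, had 2604 ± 135 CPM in HTB and 2491 ± 330 CPM in LTB (SD, n = 5). The other stalk proteins, Rplp1 and Rplp2, had 675 ± 57.5 and 540 ± 44.6 CPM in HTB, and 757 ± 143 and 518 ± 89.6 CPM in LTB. To compare levels between genes, CPM were divided by the kilobases of coding sequence. On that scale the median of the 77 genes was 1585 CPM per kilobase, and 73 lay within 2-fold of it. Rps6, the substrate of the S6 kinases, was lowest at 100.4 CPM per kilobase, below Rpl36 at 705.5. Its 10 libraries ran from 65.1 to 92.2 CPM, and its counts were fractional in all 10, so its reads may be shared with copies elsewhere in the genome. Rpl41 was highest at 11752 CPM per kilobase, a value that rests on a coding sequence of only 75 bases. Coding length was chosen after 2 other length definitions had been computed. With the transcript matched through RefSeq, Rps15a was lowest at 82.7 CPM per kilobase, on a transcript of 5179 bases. With the principal transcript, Rps20 was next to lowest at 99.6, on a transcript of 3706 bases. Rps6 was at 85.4 CPM per kilobase under both, so its place among the lowest did not depend on that choice, whereas the highest gene did.

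In part of the family the mRNA start was visible in the reference sequence. Of the 77 genes, 57 had an entry in the RefSeq promoter table (GRCm38.p6), which covers 250 bases before to 50 after each annotated start. The windows below run from 25 bases before the start to 25 bases from it, and capitals mark a C followed by at least 4 pyrimidines (C or T) at the start. The windows were picked from genes with the tract at the annotated start, in both subunits and in the retrocopy Rps27rt beside its parent Rps27.
Rps6 (chr4:86857343-86857392, minus strand): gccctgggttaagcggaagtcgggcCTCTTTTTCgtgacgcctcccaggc
Rps10 (chr17:27635220-27635269, minus strand): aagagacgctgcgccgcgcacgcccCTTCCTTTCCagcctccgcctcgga
Rps18 (chr17:33955641-33955690, minus strand): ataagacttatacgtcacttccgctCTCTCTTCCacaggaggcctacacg
Rpl15 (chr14:18270962-18271011, minus strand): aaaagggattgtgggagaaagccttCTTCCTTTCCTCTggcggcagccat
Rpl35 (chr2:39005107-39005156, minus strand): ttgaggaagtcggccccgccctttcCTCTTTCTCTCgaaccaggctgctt
Rps27 (chr3:90213624-90213673, minus strand): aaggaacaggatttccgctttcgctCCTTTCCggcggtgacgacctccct
Rps27rt (chr9:114982715-114982764, minus strand): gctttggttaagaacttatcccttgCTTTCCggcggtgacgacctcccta

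Such a run began exactly at the annotated start in 13 of 57 genes (22.8%), against 3.01% of 27025 genes in the promoter table and 0 of 69 mitochondrial ribosomal protein genes. Allowing any start within 10 bases, it was found in 59.6% of the 57, in 34.4% of all genes and in 44.9% of the mitochondrial set. The letters CCGGAAG, on either strand, were in 42.1% of the 57 against 9.93% of all genes and 37.7% of the mitochondrial set. The letters AAGATGGC, on either strand, were in 8.77%, 3.19% and 17.4%. These are matches of letters in a window, not measured sites.

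The main comparison asked whether ribosomal protein mRNAs differed between HTB and LTB. They differed little. The log2 fold changes (HTB over LTB) of the 77 genes ran from -0.20 to 0.36 with a median of 0.01, and 42 were positive and 35 negative. Over all 13469 genes tested the median was 0.02. The median size of the log2 fold change, whatever its sign, was 0.08 for the 77 genes and 0.16 for all genes. Among the 463 genes at or above the 5th percentile of the 77 in mean log2 CPM, it was 0.11. For 75 of the 77 the 95% interval lay within 0.5 of 0 on the log2 scale, so larger changes were outside the interval for those genes.

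Of the 85 members with enough reads to be tested by edgeR's quasi-likelihood test with Benjamini-Hochberg adjustment over all genes, 1 was higher in HTB and 0 were lower. That is 1.18% of the members tested, beside 11.4% of all genes, of which 3.91% were called higher and 7.51% lower. At an unadjusted edgeR p under 0.05 there were 8 of 85 members, beside 29.1% of all genes. The DESeq2 Wald test called 4 members of the 82 it gave an adjusted p, all higher, beside 18.6% of all genes (8.08% higher, 10.5% lower). The 4 members not tested, for low counts, were Rpl3l, Rpl39l, Rps27rt and Rpl32l.

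**Figure D1:**
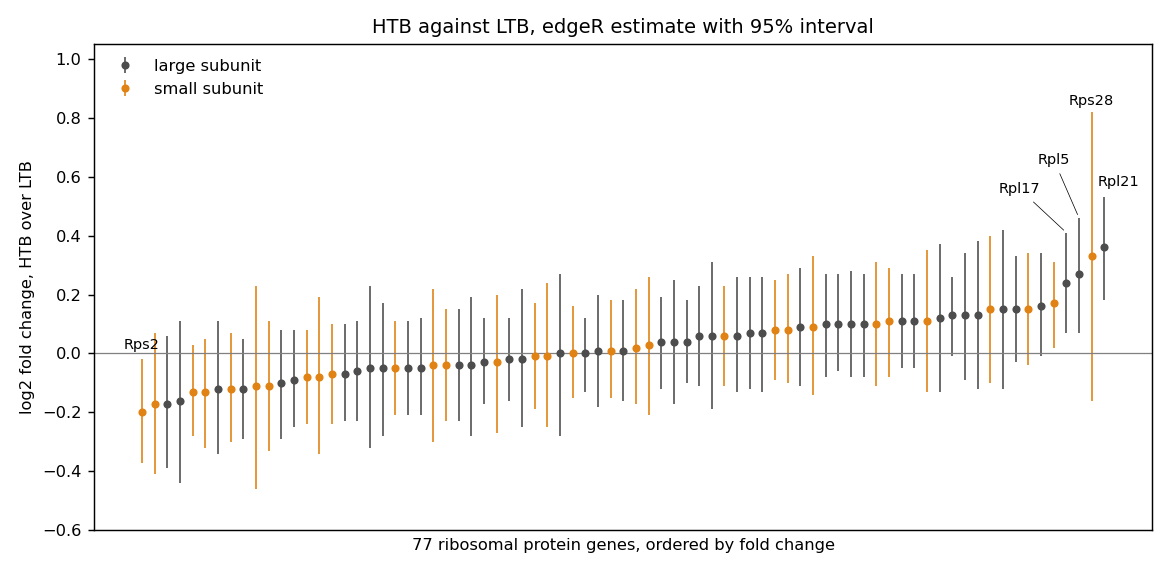
The log2 fold change of HTB over LTB (y axis) for each of the 77 ribosomal protein genes in order of size (x axis), with edgeR's 95% interval as a line and the subunit by colour. The estimates run from -0.20 (Rps2) to 0.36 (Rpl21), and the interval of Rps28 is the widest at the upper end, reaching 0.82.

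Rpl21, a large-subunit protein, was the gene called. It lies on chromosome 5 at 146832890 to 146837032 (GRCm38, plus strand). Its HTB libraries had 1670, 1389, 1665, 1786 and 1656 CPM and its LTB libraries 1166, 1362, 1192, 1410 and 1254 CPM. HTB replicate 2 was below LTB replicate 4, so the groups overlapped, and the other 4 HTB libraries were above every LTB library. The log2 fold change was 0.36 ± 0.08 (SE), an edgeR adjusted p of 0.0215. The call was lost without HTB replicate 3 (adjusted p = 0.0574), without HTB replicate 4 (adjusted p = 0.0599) and without LTB replicate 3 (adjusted p = 0.0521), with log2 fold changes of 0.35, 0.32 and 0.33. It held without HTB replicate 2 and LTB replicate 5 together, at 0.40 and an edgeR adjusted p of 0.0115.

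Rpl17, which lines the exit of the peptide tunnel, was the only member tested whose groups did not overlap, beside 11.7% of all genes tested. Its HTB libraries had 1157, 1173, 1139, 1214 and 1156 CPM and its LTB libraries 905, 1063, 860, 1133 and 994 CPM. The lowest HTB library was only just above the highest LTB library. The log2 fold change was 0.24 ± 0.08 (SE), which did not pass (edgeR adjusted p = 0.0729).

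Rpl5 binds 5S ribosomal RNA and, with Rpl11, the p53 regulator Mdm2. It had 1841, 1639, 1857, 2021 and 1917 CPM in HTB and 1433, 1631, 1497, 1808 and 1337 CPM in LTB. LTB replicate 4 lay among the HTB libraries. The log2 fold change was 0.27 ± 0.09 (SE), with an edgeR adjusted p of 0.0772.

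Without LTB replicate 4, edgeR called 4 members, all higher, among them Rpl21, Rpl17 and Rpl5 with log2 fold changes of 0.39, 0.29 and 0.33. In that fit 8.53% of all genes were called, 2.25% higher and 6.28% lower.

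**Figure D2:**
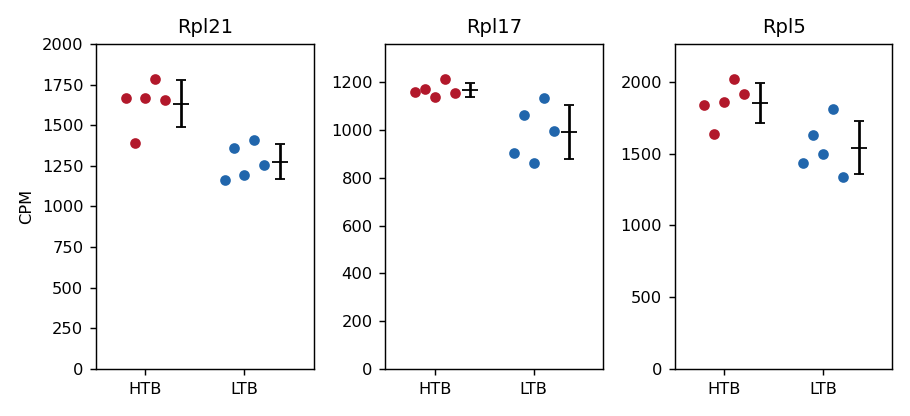
CPM of Rpl21, Rpl17 and Rpl5 (y axis, from 0) in each library of HTB and LTB, with the mean and SD of 5 libraries in black. The fitted difference is largest for Rpl21, at 1.28-fold, and LTB replicate 4 is the highest LTB library in all 3.

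In the authors' deposited table, 4 members have a q under 0.05 and are higher in HTB (Rpl21, Rpl17, Rpl5 and Rpl3l), and 2 are lower (Rpl34-ps1 and Rpl37rt), of 88 members with a q. The authors' deposited table has a q under 0.05 for 14.5% of all genes with a q. In that table the log2 fold changes of Rpl21, Rpl17 and Rpl5 are 0.36, 0.24 and 0.27. Rpl3l, Rpl34-ps1 and Rpl37rt each rest on 1 library, as shown further on.

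Of the 77 genes, 30 contain annotated snoRNA genes on the same strand. The 5 of the 77 with an unadjusted edgeR p under 0.05, among them Rpl21, Rpl17, Rpl5 and Rps2, were all among these 30. As a share of the 30, these 5 were fewer than the 29.1% of all genes at that p. Of the 30, 16 had positive and 14 negative log2 fold changes. The median was 0.03, and 0.01 for the other 47. Rpl21 and Rpl5 had fractional counts in all 10 libraries, Rpl17 in 6 and Rps2 in 2, so their reads may be divided with near-identical copies. Counts were fractional in a library for 24 of the 77 genes and for 19.5% of all genes. The part of either feature in these differences was not tested.

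On the lower side, Rps2 had the most negative log2 fold change of the 77 genes. Its HTB libraries had 2204, 2597, 2499, 2299 and 2119 CPM and its LTB libraries 2903, 2525, 2369, 2744 and 2885 CPM. The ranges overlapped, and the log2 fold change of -0.20 ± 0.08 (SE) did not pass (edgeR adjusted p = 0.135). Rpsa, the laminin receptor protein of the small subunit, had -0.17 ± 0.11 (SE), with an edgeR adjusted p of 0.322. Without LTB replicate 5 its value was -0.06.

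What differed more than the means was the spread within a group. The median SD of log2 CPM over the 77 genes was 0.074 among HTB libraries and 0.172 among LTB libraries, and the SD was larger in LTB for 72 of 77. Over the 14362 genes with reads in every library the medians were 0.186 and 0.187, and the SD was larger in LTB for 7037. Those genes were not matched to the 77 in abundance, and HTB replicate 2 was kept in the HTB spread. No test was made of the difference in spread, since the genes of a library share its source.

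LTB replicates 3, 4 and 5 lay farthest from the rest. LTB replicate 3 was the lowest of the 10 libraries for 43 of the 77 genes, with a median of -0.22 from each gene's mean on the log2 scale. LTB replicate 4 was the highest for 38, with a median of 0.15. LTB replicate 5 was the highest for 21 and the lowest for 19. Without LTB replicate 3 the SD was larger in LTB for 68 of 77, without replicate 4 for 69 and without replicate 5 for 74. Without replicates 3 and 4 together it was larger for 58, and without all 3 for 32, with a median SD of 0.061. That last SD rests on LTB replicates 1 and 2 alone, against 5 HTB libraries, so the 2 are not compared like for like.

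**Figure D3:**
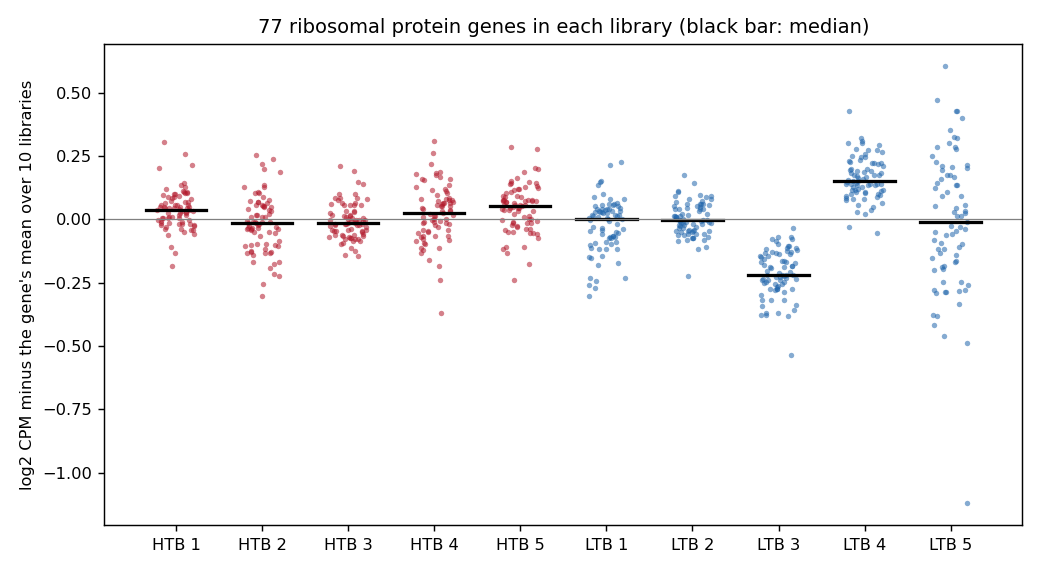
Each point is 1 of 77 ribosomal protein genes in 1 library, as log2 CPM minus that gene's mean over the 10 libraries (y axis), and black bars are medians. The points of LTB replicate 3 sit low (median -0.22), those of LTB replicate 4 high (median 0.15), and those of LTB replicate 5 are widely scattered.

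Outside the symbol rule, Fau and Rack1, named after their values were seen, deviated by -0.39 and -0.15 in LTB replicate 3 and by 0.19 and 0.26 in LTB replicate 4, in the same directions as the 77 genes. Among lists of other genes, the medians in LTB replicates 3 and 4 were 0.04 and 0.13 for elongation and termination factors and 0.15 and 0.06 for proliferation genes. Mitochondrial ribosomal proteins had -0.06 and 0.08, initiation factors 0.03 and 0.02, ribosome biogenesis factors 0.06 and 0.03, and other TOP mRNAs -0.03 and 0.09.

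LTB replicate 5 differed in another way: its median deviation was -0.01, but the SD over the 77 genes was 0.27, against 0.07 to 0.11 in the other 9 libraries. Across the 77 genes, which share that library, its deviation had a Spearman rho of 0.34 with coding length, and the part of length or RNA quality was not tested. Rps28, a small-subunit protein, had 177 CPM there, 40.3% of the median of the other libraries. Its other LTB libraries had 374, 406, 299 and 519 CPM and its HTB libraries 461, 449, 441, 407 and 471 CPM. Its log2 fold change was 0.33 ± 0.22 (SE), with an edgeR adjusted p of 0.349, and 0.16 without LTB replicate 5. Rps10, named after its values were seen, had 1136 CPM there, 157% of the median of the other libraries, which ran from 578 to 843 CPM. Relative to the median of the other libraries, 13 genes were more than 0.25 higher on the log2 scale and 16 more than 0.25 lower in LTB replicate 5.

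The same library had the highest values of 3 of the 5 retrocopies. Rpl37rt had 122 CPM in LTB replicate 5, and in the others 2.92, 1.87, 1.71 and 2.63 CPM in LTB and 2.33, 1.54, 2.53, 2.86 and 1.54 CPM in HTB. Rpl34-ps1 had 23.4 CPM there, against 0.401 to 1.17 CPM in the other 9. Rpl31-ps12 had 22.8 CPM there, against 1.25 to 2.33 CPM. LTB replicate 5 was thus 41.8 times the next highest library for Rpl37rt and 9.79 times for Rpl31-ps12. Of the parents, Rpl37 (457 CPM) and Rpl31 (701 CPM) lay within the range of the other libraries there, and Rpl34 (530 CPM) was just above its next highest library (520 CPM).

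The edgeR log2 fold changes of Rpl37rt, Rpl34-ps1 and Rpl31-ps12 were -3.60 ± 1.28, -3.22 ± 1.10 and -1.78 ± 0.79 (SE), and none passed (adjusted p = 0.0941, 0.0836 and 0.164). Without LTB replicate 5 they were -0.08, -0.52 and -0.06. The differences in the group means therefore rest on 1 library.

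**Figure D4:**
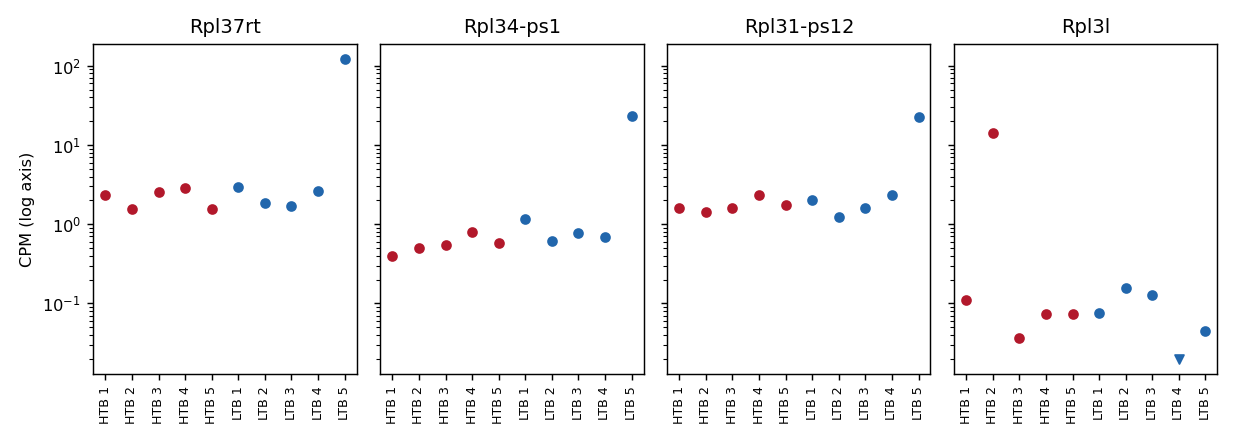
CPM (y axis, log scale) of 3 retrocopies and of the paralog Rpl3l in each of the 10 libraries; the triangle marks a library with 0 reads, drawn at 0.02. The retrocopies are high in LTB replicate 5 (122, 23.4 and 22.8 CPM) and Rpl3l in HTB replicate 2 (14.2 CPM).

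The coding sequences show how little separates these copies from their parents. Rpl37rt differs from Rpl37 at 1 of 291 bases, Rpl34-ps1 from Rpl34 at 2 of 351 and Rpl31-ps12 from Rpl31 at 4 of 375, in the GENCODE vM21 transcripts (GRCm38). Stretches of 60 coding bases follow, parent before copy, with the differing bases in capitals.
Rpl37, coding bases 190 to 249: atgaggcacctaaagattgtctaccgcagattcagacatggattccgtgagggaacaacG
Rpl37rt: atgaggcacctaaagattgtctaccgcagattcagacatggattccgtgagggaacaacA
Rpl34, coding bases 73 to 132: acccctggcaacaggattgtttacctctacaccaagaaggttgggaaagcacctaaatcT
Rpl34-ps1: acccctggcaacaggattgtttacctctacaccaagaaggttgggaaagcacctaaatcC
Rpl31, coding bases 52 to 111: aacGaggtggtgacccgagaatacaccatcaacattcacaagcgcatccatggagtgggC
Rpl31-ps12: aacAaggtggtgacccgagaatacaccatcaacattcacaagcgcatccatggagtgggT

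A read that covers none of the differing bases cannot be assigned to copy or parent from the coding sequence alone, and the counts of Rpl37rt and Rpl31-ps12 were fractional in all 10 libraries and those of Rpl34-ps1 in 9. Rps27rt was identical to Rps27 over its whole coding sequence and had 0 to 0.812 CPM. Rpl32l, 96.0% identical to Rpl32, had 0.0415 CPM in HTB replicate 2 and 0 reads in the other 9 libraries.

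The other 9 genes that stood alone in LTB replicate 5 by the same measure were Ccl24, Chil3, Gm4737, H2-Q6, Hist1h2ap, Hmga1b, LOC100862433, Mgl2 and Slc7a2, named because they complete the count. Chil3, a marker of alternatively activated mouse macrophages, had 118 CPM there and at most 6.11 CPM elsewhere. Hist1h2ap had 172 CPM there and at most 24.2 CPM elsewhere, Slc7a2 145 and 32.8 CPM, and Hmga1b 33.2 and 3.52 CPM. Summed macrophage markers were 1985 CPM in that library, within the LTB range. The part of cell composition or of read assignment in the values of these genes and of the retrocopies was not tested.

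Paralogs can replace a ribosomal protein in some tissues. Rpl3l, the striated-muscle counterpart of Rpl3, had 14.2 CPM (341 reads) in HTB replicate 2, while the other 9 libraries held 0 to 0.156 CPM. That library also held the high muscle marker sum given above. Rpl39l, known from testis, was highest in the same library at 1.83 CPM, against 0.0362 to 0.682 CPM elsewhere. Neither was tested by edgeR.

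For 4 of the 8 listed pairs both copies had enough reads to compare their ratio, which does not depend on library scaling. Rpl36al, an intronless paralog of Rpl36a, had 25.34, 32.60, 25.03, 22.71 and 21.93% of the reads of Rpl36a in HTB and 39.72, 28.52, 36.13, 27.99 and 21.67% in LTB. The ranges overlapped, and the log2 ratio differed by -0.25, HTB minus LTB (exact two-sided permutation p = 0.214, adjusted p = 0.571 over 4 pairs). For Rpl22l1 over Rpl22 the difference was -0.19 and for Rps27l over Rps27 -0.18. For Rpl7l1 over Rpl7 it was -0.08. All 4 had an adjusted exact permutation p of 0.571, where the smallest unadjusted p that 5 against 5 libraries allow is 0.00794. Rpl10l and Rps4l were not analysed here.

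**Figure D5:**
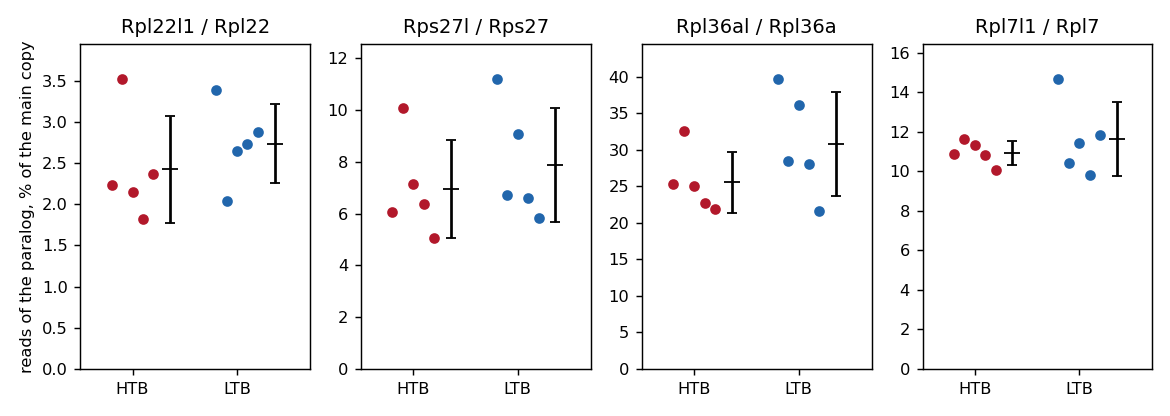
Reads of 4 paralogs as a percent of the reads of the main copy (y axis, from 0) in each library of HTB and LTB, with mean and SD in black. The groups overlap in every panel, and Rpl36al takes 21.7 to 39.7% of the reads of Rpl36a.

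Rps19bp1, whose product binds Rps19 and is known as a regulator of Sirt1, ranged between 24.3 and 25.3 CPM for HTB and between 24.6 and 35.9 CPM for LTB. Its log2 fold change was -0.21 ± 0.10 (SE), with an edgeR adjusted p of 0.175.

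Lists of genes around the ribosome were read from the same fit. Over 250 genes tested, 2 were higher and 2 lower in HTB (1.60%), beside 11.4% of all genes. None of 78 mitochondrial ribosomal proteins, 43 biogenesis factors, 15 RNA polymerase I genes, 10 elongation and termination factors, 10 S6 kinases, 19 other TOP mRNAs, 17 quality control genes or 20 chaperones and importins was called by edgeR. Without HTB replicate 2 the count over the same genes was 19, 5 higher and 14 lower, 5 of the lower being mitochondrial ribosomal proteins, beside 22.4% of all genes called in that fit (9.77% higher, 12.7% lower). Without both HTB replicate 2 and LTB replicate 5 it was also 19, 3 higher and 16 lower, beside 20.3% of all genes (8.66% higher, 11.7% lower).

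Among 31 initiation factors 2 fell (6.45%), beside 7.51% of all genes called lower and 11.4% called in either direction. Eif6, which keeps the large subunit from joining the small one, ranged between 106 and 120 CPM for HTB and between 134 and 166 CPM for LTB, without overlap. Its log2 fold change was -0.41 ± 0.08 (SE), with an edgeR adjusted p of 0.00967. Eif3d, a subunit of the initiation factor that binds the small subunit, had a log2 fold change of -0.32 ± 0.08 (SE), with an edgeR adjusted p of 0.0318. The call of Eif6 held when each library was left out in turn. That of Eif3d was lost without any 1 of 7 libraries (HTB replicates 1, 3, 4 and 5 and LTB replicates 1, 4 and 5), with edgeR adjusted p up to 0.0719.

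Among 20 genes of the mTORC1 and LARP1 list 2 rose (10.0%), beside 11.4% of all genes. Tia1, an RNA-binding protein reported to bind TOP mRNAs, ranged between 65.6 and 91.6 CPM for HTB and between 56.4 and 64.0 CPM for LTB, without overlap. Its log2 fold change was 0.40 ± 0.09 (SE), with an edgeR adjusted p of 0.0185, and of 0.0534 without HTB replicate 3. Mtor, the kinase itself, had a log2 fold change of 0.16 ± 0.05 (SE), with an edgeR adjusted p of 0.0483. The call of Mtor was lost whichever of the 10 libraries was left out, with edgeR adjusted p from 0.0515 to 0.108. Larp1 had a log2 fold change of -0.20 ± 0.06 (SE), which did not pass (edgeR adjusted p = 0.0524). Without HTB replicate 2 the list had 1 gene higher, Tia1, and 2 lower, Larp1 at -0.22 and Eif4ebp1 at -0.31 (edgeR adjusted p = 0.0228 and 0.0411). In that fit 22.4% of all genes were called. Without both libraries Tia1 was called higher and Larp1 lower.

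In a list of 15 proliferation genes, 2 fell (13.3%), beside 7.51% of all genes called lower and 11.4% called in either direction. E2f1 fell by 0.34 and Pcna by 0.36 on the log2 scale (edgeR adjusted p = 0.00861 and 0.00899). Without HTB replicate 2, 7 of the 15 were called, all lower in HTB, beside 22.4% of all genes in that fit (12.7% lower). Without both HTB replicate 2 and LTB replicate 5, 6 of the 15 were called, all lower, beside 20.3% of all genes (11.7% lower).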

How the data were processed

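The values deposited by the authors are estimated counts of reads per gene in 10 libraries, not scaled to depth. Per the labels' protocols, a SMARTER kit turned total RNA into mRNA libraries. The build was GRCm38 (mm10), per the submitters' processing notes. For the aligner, counting tool and strand setting: not given in the sources used here. Whole numbers (tolerance 1e-09) made up 86.4% of values; others were rounded before testing. The log2 fold changes, p-values and q-values of the authors come from the same deposited table and are headed DESeq2; their log2 values were positive where the HTB mean was higher in 2638 of 2638 genes with a q under 0.05.

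Groups were compared by quasi-likelihood in edgeR 4.0.16 (R 4.3.3), with TMM factors, filterByExpr and group as sole covariate, for 10 libraries and 13469 genes, at an adjusted p of 0.05. Scripts were tested on simulated data. In 1 simulation, genes among the 300 most abundant that were not called were raised by a known fold, 40 for each fold. Of those raised 1.2-fold 7.5% were called, of those raised 1.3-fold 47.5%, and of those raised 1.5-fold 97.5%. Changes of 1.2-fold or 1.3-fold could therefore be missed. DESeq2 1.42.0 and limma 3.58.1 served as alternatives. Paralog ratios used a pseudocount of 0.5 reads and an exact permutation test, for pairs with at least 10 reads in at least 5 libraries. Coding lengths and sequences came from GENCODE vM21, promoters from RefSeq. Within groups, every pair of libraries differed beyond sampling noise (chi-square per degree of freedom 10.6 to 203 over 20 pairs). Intervals do not cover error beyond the spread between libraries.

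The members and lists were chosen with earlier results of these data known. Members named with values are those called, the 5 most and 3 least abundant tested, those not tested, the paralog pairs, the 3 largest fold changes each way and those whose groups do not overlap; Rps6, Rps10, Rps15a, Rps20, Rplp1, Rplp2, Rpl36, Rpl41, Rps19bp1, Larp1 and Eif4ebp1 were chosen after their values were seen. Other genes serve a count, a sequence or a background role. Per-length levels were computed with 3 length definitions, and the one reported was chosen after seeing the values of the other 2. Some genes that were measured are not reported here.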

Additional observations from a re-analysis of the deposited data

Results flagged for a closer look

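In groups of 5 libraries, 9 of 82 groups had a library whose gap to its nearest neighbour exceeded the 95% critical value of 0.71 for the share of the group's range. That value flags about 1 in 20 groups of unselected normal values. Some of these genes were named for large fold changes, for low counts or after their values were seen. The rate is therefore no baseline for the 9 flags. HTB replicate 2 gave 6 of these: Rpl3l at 14.2 CPM, Rpl39l at 1.83 CPM, Rpl22l1 at 21.3 CPM, Rplp2 at 620.0 CPM, Rpl32l at 0.0415 CPM, from a deposited estimate of 0.92 reads, and the ribosomal protein share of reads at 6.51%. LTB replicate 5 gave the other 3: Rpl37rt at 122 CPM, Rpl34-ps1 at 23.4 CPM and Rpl31-ps12 at 22.8 CPM.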

How the results depend on the processing

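The count of ribosomal protein genes called was 1, and it was 4 with the DESeq2 Wald test, 3 with limma voom and sample quality weights, 0 with the replicate block, 2 without both HTB replicate 2 and LTB replicate 5 (Rpl21 higher and Rpl36al lower, log2 fold change -0.29), and 0 to 4 when each library was left out in turn. The count over the lists around the ribosome was 4, ran from 1 to 19 when each library was left out, and was 19 without both of those libraries. Over all genes the count was 1537, and it was 2449 with DESeq2 (1065 higher, 1384 lower), 3593 with limma voom and quality weights, 971 with the replicate block, 2747 without both libraries, and 736 to 3040 when each library was left out. Under the replicate block Rpl21 had an adjusted p of 0.0601 (edgeR). The replicate numbers were not taken as pairs: same-numbered libraries had correlations of 0.00689 to 0.105, and 1 of 5 HTB libraries correlated best with its own number. With the block, paralog ratios had a smallest possible p of 0.0625 and an adjusted exact permutation p of 0.562. The share difference ran from 0.013 to 0.361 percentage points when each library was left out, and the paralog differences from -0.34 to -0.10 (Rpl22l1), -0.32 to -0.04 (Rps27l), -0.37 to -0.15 (Rpl36al) and -0.14 to 0.01 (Rpl7l1). No called value reversed in the alternatives run. The level per length depended on the length definition for Rps15a (82.7, 669 or 1098 CPM per kilobase) and Rps20 (99.6 or 1034). Leaving out libraries by how they stood apart, the other LTB spread checks and the length definition were chosen after seeing the data. The causes were not tested.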
